A study of Homo sapiens with 6 samples.

Results

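The genes described here are TAGLN and 9 other genes of the smooth muscle type contractile apparatus, namely TAGLN2, ACTA2, CNN1, CNN2, MYL9, TPM1, TPM2, CALD1 and MYLK. They were found by their symbols in a table of 20325 genes, each symbol matching 1 row. They were proposed after the comparison of knockdown with control had been seen in these same libraries, so their values in that comparison are a description and carry no test of their own. RNA was measured by bulk sequencing in a derivative of SNU-668, a line long established from human gastric cancer, that the labels call erastin-resistant. Erastin, a compound that stops cells from importing cystine, induces ferroptosis, in which cells die of lipid peroxidation. The first group is 3 libraries of erastin-resistant cells transfected with an shRNA against ALKBH3 (genotype label ALKBH3 knockdown). The second is 3 libraries of erastin-resistant cells transfected with a control shRNA (genotype label WT). Resistance to erastin is therefore common to both groups, and no parental or untransfected cells are analysed here. Every sample title starts with an unexplained code, RLS3, and only the protocols state that the cells are resistant. ALKBH3 encodes an iron-dependent demethylase that repairs alkylated bases in nucleic acids. The labels name neither the shRNA sequence nor a clone, and do not say that replicates were separate cultures, so that spreads and p-values measure only these libraries and may be technical.

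Contractile cells shorten by sliding myosin filaments along actin. The kinase MYLK, activated by calcium and calmodulin, phosphorylates the regulatory light chain of myosin, and tropomyosin, caldesmon and calponin sit along the actin filament and set how myosin reaches it. Transgelin (TAGLN, also called SM22 alpha) is a calponin-related protein that binds and bundles actin, and is used with ACTA2 and CNN1 as a marker of smooth muscle and of myofibroblasts. Many of these genes are activated by the serum response factor SRF with myocardin or the myocardin-related factors MRTF-A and MRTF-B, through a DNA element called the CArG box, and by TGF-beta. Non-muscle cells, carcinoma cells included, use close relatives of the same proteins in stress fibres.

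Library totals ran from 14244932 to 17880183 counts, with reads on 14465 to 14754 genes per library. ALKBH3 had 5.28, 5.98 and 4.52 CPM (read counts relative to the scaled library total) in knockdown libraries, against 23.0, 22.9 and 22.6 CPM in control libraries. Of 12305 genes with enough counts to be tested, 487 were higher and 507 lower in knockdown at an adjusted p under 0.05 (edgeR's quasi-likelihood test with Benjamini-Hochberg adjustment). Scaling by library totals alone gave 610 higher and 417 lower. The marker lists did not place these cells with smooth muscle, since MYH11, the smooth muscle myosin heavy chain, had 10 reads over the 6 libraries, MYOCD 27, LMOD1 26 and DES 101. The 7 smooth muscle markers together held 72.0 to 85.3 CPM in knockdown libraries and 95.9 to 102 CPM in control libraries, most of it SMTN. Of 16 epithelial markers, 6 had 0 reads in every library, among them the epithelial cadherin CDH1, and the epithelial signal of this gastric cancer line came chiefly from the keratin KRT18. The epithelial list summed to 224 to 239 CPM in knockdown and 162 to 186 CPM in control. Of its 16 markers only 5 were tested, with 3 higher (KRT7, KRT8 and KRT18), where 3.96% of all tested genes were higher. The 10 fibroblast markers summed to 2730 to 3080 CPM in knockdown and 3000 to 3420 CPM in control, with none called. Most of this came from COL1A2 and THY1. PDGFRB averaged 143 CPM in knockdown and 120 CPM in control, COL1A1 80.1 and 105 CPM, and FAP 14.7 and 17.7 CPM. POSTN and PDGFRA were lower, at 4.74 and 1.48 CPM in knockdown and 4.24 and 2.48 CPM in control. COL3A1, DCN and LUM were near 0. The 6 pericyte markers summed to 129 to 156 CPM in knockdown and 137 to 158 CPM in control. Most of this was MCAM, at 126 CPM in knockdown and 132 CPM in control on average. The next highest, ABCC9, averaged 8.31 CPM in knockdown and 10.5 CPM in control. The 9 endothelial and blood markers summed to 2.59 to 5.98 CPM in knockdown and 2.44 to 3.38 CPM in control. No marker of the smooth muscle, fibroblast, pericyte, endothelial or blood lists was higher by the test. Of the 3 tested smooth muscle markers, 2 were lower (SMTN and ACTG2), where 4.12% of all tested genes were lower. No marker of the other lists was lower by the test. The part of these lists in the results below was not tested.

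Reads of related genes can be divided wrongly where their sequences are alike. The start of the coding sequences of TAGLN and TAGLN2 is shown because these paralogs lay on opposite sides of 0 in the comparison. The first 150 coding bases of each (GENCODE v29, GRCh38, given 5′ to 3′ on the sense strand) differ at 45 positions, which are in capitals.

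TAGLN: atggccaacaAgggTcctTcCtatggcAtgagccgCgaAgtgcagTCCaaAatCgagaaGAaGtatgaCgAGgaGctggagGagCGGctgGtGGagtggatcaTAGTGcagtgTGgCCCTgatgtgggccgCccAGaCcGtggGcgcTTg
TAGLN2: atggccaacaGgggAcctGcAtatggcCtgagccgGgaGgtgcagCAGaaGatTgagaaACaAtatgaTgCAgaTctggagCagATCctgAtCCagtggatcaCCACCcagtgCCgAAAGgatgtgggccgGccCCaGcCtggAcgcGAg

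Over their whole coding sequences TAGLN and TAGLN2 were identical at 70.9% of aligned bases, with no exact shared run longer than 19 bases. The libraries were read in 150 cycles per end, so no read of that length within the coding sequence is common to both. CNN1 and CNN2 shared 70.1% of aligned coding bases and at most 23 in a row, and TPM1 and TPM2 75.4% and at most 38. ACTB, which was far more abundant, shared 82.2% with ACTA2 and at most 32 in a row, and 84.4% with ACTG2 and at most 31. Its part in the low counts of ACTA2 and ACTG2 was not tested. ACTA2 and ACTG2, the 2 smooth muscle actins, were identical at 84.9%. Their longest shared run, at coding bases 1054 to 1082 of ACTA2, is shown as the longest stretch that does not tell them apart.

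ACTA2 and ACTG2: tccaccttccagcagatgtggatcagcaa

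Counting could also mix overlapping genes. TAGLN overlaps the opposite-strand gene PCSK7 by 446 bases, and ACTA2 overlaps FAS by 734 bases and STAMBPL1 by 40080 bases, both on the opposite strand. The library kit marks strand, but whether counting used it is not given in the sources used here.

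**Figure D1:**
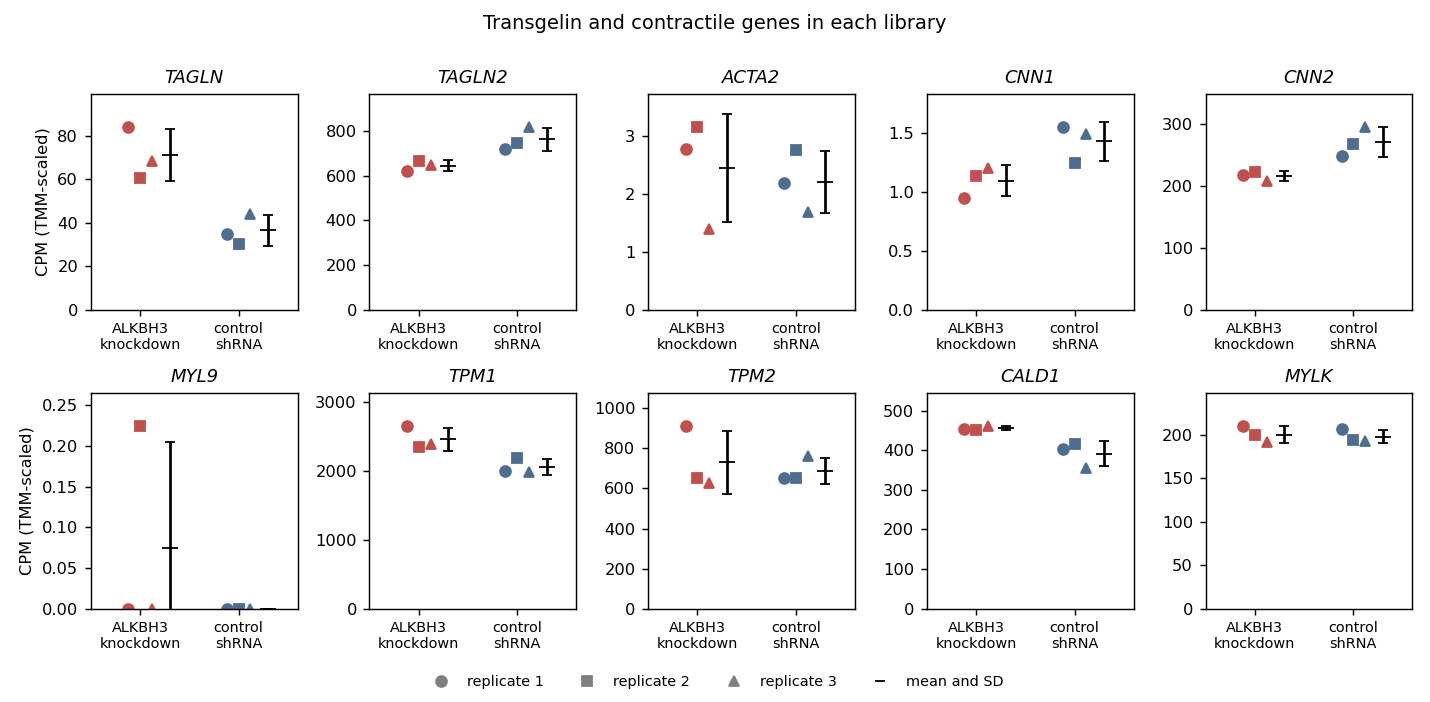
Level of each of the 10 genes in every library, in CPM on scaled library sizes, with a vertical axis from 0 in each panel. Points are libraries (ALKBH3 knockdown left, control shRNA right), the dash and bar are the group mean and SD of 3 libraries. The 3 knockdown libraries of TAGLN lie between 60.6 and 84.3 CPM, above the 3 control libraries.

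TAGLN (ENSG00000149591, chr11:117070037-117075498 on the plus strand, hg19) was the member with the largest difference. It had 84.3, 60.6 and 68.5 CPM in knockdown libraries, against 35.0, 30.2 and 44.2 CPM in control libraries, from 462 to 1516 reads per library. Every knockdown library was above every control library, with knockdown 1 the highest and control 2 the lowest. The means were 71.1 ± 12.1 CPM in knockdown and 36.5 ± 7.11 CPM in control (SD, n = 3 each), a 1.95-fold difference (log2 fold change 0.97, SE 0.14). Leaving out each library in turn gave log2 fold changes from 0.82 to 1.13. PCSK7, the overlapping proprotein convertase, was at 44.0 ± 1.38 CPM in knockdown and 50.7 ± 3.54 CPM in control, and its part in the TAGLN counts was not tested. In bulk RNA, more cells with TAGLN and more TAGLN per cell cannot be told apart.

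TAGLN2, the broadly expressed transgelin (chr1:159887897-159895522, minus strand), lay the other way. It had 622, 668 and 647 CPM in knockdown libraries, against 719, 749 and 820 CPM in control libraries. All 3 knockdown libraries were below the lowest control library. The log2 fold change was -0.24 with an SE of 0.08, and it stayed between -0.28 and -0.19 when single libraries were left out. TAGLN2 was not past the threshold here, though it was with DESeq2 and with the replicate number as a block. TAGLN3, the neuronal transgelin, had at most 5 reads in any library.

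Levels of different genes were compared as RPKM, which is CPM divided by exon length in kilobases. Per length, TAGLN made up 7.92%, 5.45% and 6.30% of the 3 transgelins in knockdown libraries, against 2.99%, 2.50% and 3.31% in control libraries, and TAGLN2 nearly all the rest. The share of TAGLN averaged 6.56 ± 1.26% in knockdown and 2.93 ± 0.41% in control (SD, n = 3 each). The summed transgelin level was nonetheless lower in knockdown, at 278 ± 6.17 RPKM, against 316 ± 22.2 RPKM in control. The higher TAGLN in knockdown thus added less to the family than the lower TAGLN2 took away.

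The calponins bind actin and restrain the myosin motor. CNN1, the smooth muscle calponin (chr19:11649532-11661138, plus strand), was barely present. It had 17, 20 and 18 reads in knockdown libraries, against 22, 19 and 22 in control libraries, which is 1.09 ± 0.13 CPM in knockdown and 1.43 ± 0.16 CPM in control (SD, n = 3 each). The groups did not overlap in CPM, knockdown being lower, but the log2 fold change of -0.39 had an SE of 0.34.

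CNN2, the calponin of non-muscle and smooth muscle cells (chr19:1026298-1039068, plus strand), was abundant. It had 217, 222 and 207 CPM in knockdown libraries, against 247, 267 and 295 CPM in control libraries. Knockdown libraries lay close together and all below the control libraries, and the log2 fold change was -0.32 with an SE of 0.08. CNN2 was past the threshold, but not when knockdown 3 or control 3 was left out.

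CNN3, the acidic calponin and the main calponin of these cells, is a paralog outside the 10 genes. It had 476, 483 and 503 CPM in knockdown libraries, against 674, 661 and 641 CPM in control libraries. CNN3 fell by 0.44 on the log2 scale (SE 0.08, edgeR adjusted p = 0.00069). Per length, CNN3 held 74.3 ± 1.14% of calponin in knockdown and 75.7 ± 2.09% in control, and CNN2 held 25.6 ± 1.15% in knockdown and 24.1 ± 2.09% in control (SD, n = 3 each). The calponin sum was 231 ± 3.43 RPKM in knockdown, against 307 ± 0.73 RPKM in control, with the split between CNN2 and CNN3 differing by no more than the spread between libraries.

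Tropomyosins are coiled-coil dimers that run along the actin groove. TPM1 (chr15:63334831-63364114, plus strand) had 2650, 2340 and 2380 CPM in knockdown libraries, against 2000, 2190 and 1980 CPM in control libraries. The groups did not overlap, knockdown being higher. The log2 fold change was 0.26 with an SE of 0.09. TPM1 was not past the threshold here, though it was with DESeq2, with scaling by library totals and with the replicate number as a block.

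TPM2 (chr9:35681989-35691017, minus strand) had 913, 654 and 629 CPM in knockdown libraries, against 650, 652 and 762 CPM in control libraries. The groups overlapped, and knockdown 1 stood well above the rest. The log2 fold change was 0.09 with an SE of 0.12, and -0.10 without knockdown 1. TPM3 and TPM4, the remaining tropomyosin genes, lay the other way without passing the test. TPM4 was at 1520 ± 11.5 CPM in knockdown and 1730 ± 46.5 CPM in control (log2 fold change -0.19, edgeR adjusted p = 0.183, DESeq2 adjusted p = 0.045). TPM3 was at 549 ± 30.1 CPM in knockdown and 619 ± 43.6 CPM in control (log2 fold change -0.17, edgeR adjusted p = 0.221).

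By shares, which were not tested, the tropomyosin pool differed in make-up more than in size. Per length, TPM1 held 28.1%, 29.1% and 30.0% of it in knockdown libraries, against 24.7%, 26.3% and 23.3% in control libraries. The share of TPM4 was 26.9 ± 2.63% in knockdown and 31.0 ± 1.20% in control. The sum was 657 ± 64.0 RPKM in knockdown and 645 ± 14.6 RPKM in control (SD, n = 3 each), a difference smaller than the spread between libraries. By library it was 731, 624 and 617 RPKM in knockdown, against 631, 644 and 660 RPKM in control. Only knockdown 1 lay above the control libraries, and the other knockdown libraries lay below them all.

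CALD1, which encodes caldesmon (chr7:134429003-134655479, plus strand), had 454, 452 and 462 CPM in knockdown libraries, against 403, 416 and 355 CPM in control libraries. The knockdown libraries were nearly equal and all above the control libraries. The log2 fold change was 0.22 with an SE of 0.08.

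**Figure D2:**
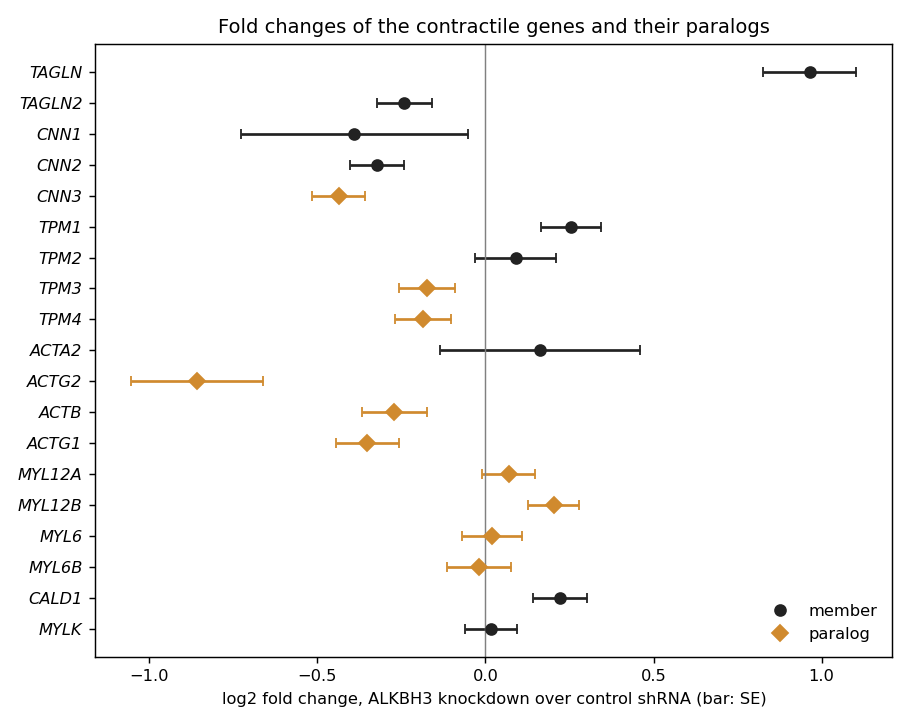
Log2 fold change of 9 tested members (black circles) and 10 tested paralogs (orange diamonds), ALKBH3 knockdown over control shRNA, on the horizontal axis, with bars of 1 SE. TAGLN stands at 0.97, apart from the other tested members, which lie between -0.39 and 0.26.

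The contractile actin and the myosin switch were low or had overlapping groups. ACTA2, alpha smooth muscle actin (chr10:90694831-90751147, minus strand), had only 50, 56 and 21 reads in knockdown libraries, against 31, 42 and 25 in control libraries. In CPM this was 2.44 ± 0.93 in knockdown and 2.21 ± 0.53 in control (SD, n = 3 each), with overlapping groups. The log2 fold change was 0.16 with an SE of 0.30, and it became -0.06 without knockdown 2. Within the actins, ACTA2 was 0.0308% of the summed level per length in knockdown and 0.0232% in control. Beta actin (ACTB) was 61.0% in knockdown and 59.7% in control.

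The other actins belong to a list of paralogs that was likewise chosen with results of these data known. ACTG2, the enteric smooth muscle actin, had 2.89, 4.06 and 3.85 CPM in knockdown libraries, against 5.56, 7.13 and 6.84 CPM in control libraries, and fell by 0.86 on the log2 scale (SE 0.20, edgeR adjusted p = 0.00602). ACTG1, cytoplasmic gamma actin, had 3230, 3050 and 2970 CPM in knockdown libraries, against 4120, 3480 and 4200 CPM in control libraries. It fell by 0.35 (SE 0.09, edgeR adjusted p = 0.0196), but the call was lost without knockdown 2 (0.0961), knockdown 3 (0.115), control 1 (0.0613) or control 3 (0.0794). ACTB was at 5690 ± 290 CPM in knockdown and 6870 ± 706 CPM in control (log2 fold change -0.27, edgeR adjusted p = 0.0855, and 0.02 without control 2). Control 2 was the control library nearest to knockdown for both cytoplasmic actins.

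MYL9, the regulatory light chain of smooth muscle myosin (chr20:35169887-35178228, plus strand), had 0, 4 and 0 reads in knockdown libraries and 0 in every control library. It was below the filter on low counts and has no fold change. Its relatives MYL12A and MYL12B supplied the regulatory light chain transcripts. MYL12B held 69.6 ± 0.80% of the family per length in knockdown and 67.6 ± 1.17% in control. MYL12B was at 342 ± 11.2 CPM in knockdown and 297 ± 9.51 CPM in control, with groups that did not overlap but an edgeR adjusted p of 0.107. MYL12A and MYL12B are identical at 95.7% of aligned coding bases, with at most 77 in a row. How far reads were divided wrongly between them was not tested, so the split is given with that limit.

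MYLK, the myosin light chain kinase (chr3:123328896-123603178, minus strand), had 210, 199 and 191 CPM in knockdown libraries, against 206, 194 and 193 CPM in control libraries. The groups overlapped throughout. The log2 fold change was 0.02 with an SE of 0.08. MYLK held 96.9 ± 0.25% of the light chain kinase family per length in knockdown and 97.5 ± 0.87% in control.

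Of the 10 genes, 9 were tested. The count past the threshold was 1 higher (TAGLN), where 3.96% of all tested genes were higher, and 1 lower (CNN2), where 4.12% were lower and 8.08% were called in either direction. Libraries of the groups did not overlap for 6 of the 9, where 26.6% of all tested genes did not overlap. These were 3 with knockdown above (TAGLN, TPM1 and CALD1) and 3 with knockdown below (TAGLN2, CNN1 and CNN2), each direction holding 13.3% of all tested genes. Since the comparison was known when the genes were chosen, nothing is read from these counts. The median log2 fold change was 0.09 over the 9 and 0.01 over all tested genes.

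**Figure D3:**
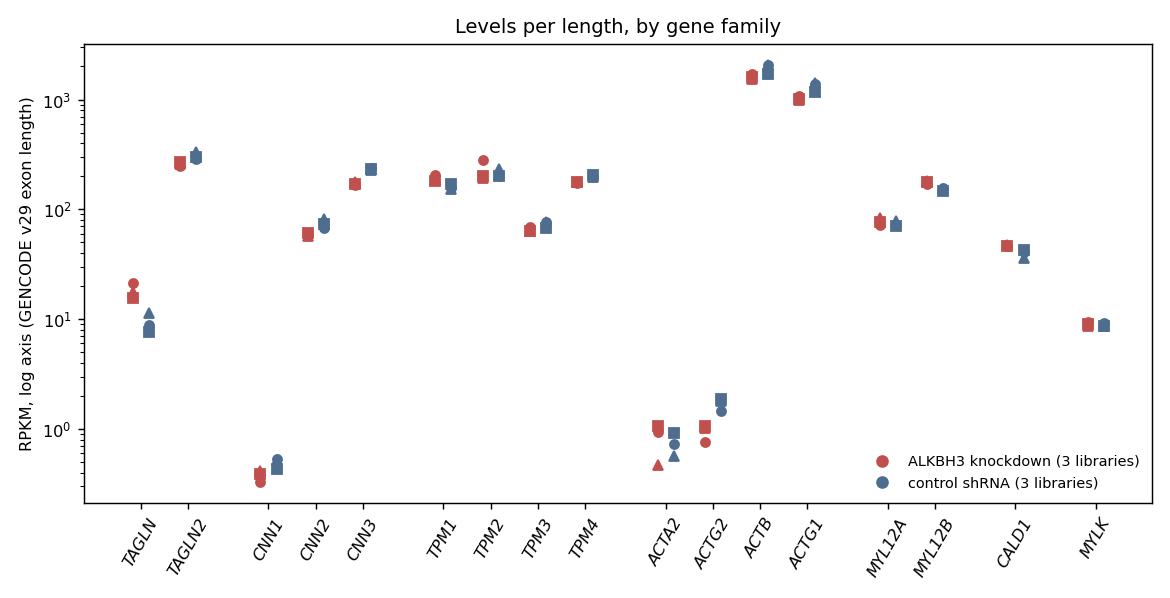
Level per length in RPKM (log axis) of the members and paralogs, grouped by family, with ALKBH3 knockdown libraries (red) left of control shRNA libraries (blue), 3 points each. ACTA2, CNN1 and ACTG2 lie near 1 RPKM, and the cytoplasmic actins near 1000 RPKM.

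Over all 6 libraries, levels per length ran from 283 RPKM down to 0.0133 RPKM. TAGLN2 averaged 283 RPKM, TPM2 219 and TPM1 175, and neighbouring genes among these 3 overlapped in their ranges over libraries. CNN2 followed at 66.5 RPKM and CALD1 at 43.0 RPKM, each with a range apart from its neighbours. TAGLN averaged 13.7 RPKM and MYLK 8.96 RPKM. TAGLN ran from 15.5 to 21.5 RPKM in knockdown libraries and from 7.71 to 11.3 RPKM in control libraries, so that only its control range overlapped the MYLK range of 8.61 to 9.47 RPKM. ACTA2 at 0.781 RPKM and CNN1 at 0.436 RPKM overlapped each other, and MYL9 was last at 0.0133 RPKM. ACTA2 and CNN1, the markers used with TAGLN for smooth muscle, were thus at or below 1.06 RPKM in every library.

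The promoters of 8 of the 10 genes were found in RefSeq (GRCh38.p14), as 15 start sites. No promoter entry was found for TAGLN or MYL9, so theirs were not searched. The 250 bases before each start were searched for the CArG box (CC, a core of A or T bases, GG), which reads the same on both strands. An exact box lay in 2 of the 15, those of CNN2 and MYLK, and 1.16% of 35116 promoters held one. All 250 bases of the MYLK window lie within annotated exons of MYLK (GENCODE v29). Allowing 1 other base in the core gave 4 of the 15, adding ACTA2 and CALD1, and 7.04% of all promoters. ACTA2 and CNN2 are shown as the smooth muscle promoter with paired near matches and the promoter of the abundant calponin with an exact match, in capitals. Each is written 5′ to 3′ on the gene's strand and ends before the first exon base. The ACTA2 window is chr10:88952774-88953023 (minus strand), with matches beginning 121 and 71 bases before the start, and the CNN2 window is chr19:1026358-1026580 (plus strand), with its match beginning 89 bases before the start.

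ACTA2: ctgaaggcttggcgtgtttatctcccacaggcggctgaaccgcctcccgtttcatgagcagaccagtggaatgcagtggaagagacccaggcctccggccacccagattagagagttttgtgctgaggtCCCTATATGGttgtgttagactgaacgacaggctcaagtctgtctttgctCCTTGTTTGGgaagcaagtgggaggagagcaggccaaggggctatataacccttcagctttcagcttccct
CNN2: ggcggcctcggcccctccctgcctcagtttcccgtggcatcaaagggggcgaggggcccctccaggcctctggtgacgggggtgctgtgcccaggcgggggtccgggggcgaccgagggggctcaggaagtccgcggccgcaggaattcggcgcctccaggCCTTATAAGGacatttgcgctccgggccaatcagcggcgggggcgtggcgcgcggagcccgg

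CNN1, TPM1, TPM2 and TAGLN2 had no match in these windows. The exact box was not confined to the members. Among paralogs with a promoter entry, it lay before a start of ACTG2, ACTG1, TPM4, ACTA1 and ACTC1. It was absent for TAGLN3, CNN3, TPM3, MYL12A, MYL12B, MYL6, MYL6B, MYLK3 and MYLK4.

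The factors upstream of these genes did not pass the test. SRF was at 37.2 ± 2.66 CPM in knockdown and 38.4 ± 2.05 CPM in control (log2 fold change -0.05, edgeR adjusted p = 0.828). MKL1, which encodes MRTF-A, was at 31.4 ± 5.08 CPM in knockdown and 34.1 ± 1.46 CPM in control (edgeR adjusted p = 0.595). MKL2, which encodes MRTF-B, was at 18.7 ± 3.22 CPM in knockdown and 19.5 ± 3.12 CPM in control (edgeR adjusted p = 0.864). All 3 had overlapping groups. MYOCD, the muscle cofactor myocardin, had 7, 5 and 1 reads in knockdown libraries, against 8, 6 and 0 in control libraries, and was not tested.

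Of 45 SRF and MRTF factors and targets other than the members, 40 were tested, with 1 higher, 5 lower and a median log2 fold change of -0.04. This is 15.0% called, where 8.08% of all tested genes were. The higher gene was ANKRD1, a nuclear ankyrin repeat protein induced by stretch and by YAP. It had 75.3, 56.5 and 57.6 CPM in knockdown libraries, against 39.8, 31.9 and 46.4 CPM in control libraries, and rose by 0.68 on the log2 scale (SE 0.13, edgeR adjusted p = 0.00353). The 5 lower genes were ACTG1 and CNN3, described above, ITGA5, SPHK1 and CORO1A. ITGA5, the fibronectin receptor subunit, had 359, 379 and 367 CPM in knockdown libraries, against 496, 488 and 483 CPM in control libraries, and fell by 0.41 (SE 0.08, edgeR adjusted p = 0.00107). The number lower was 2 without knockdown 2, control 1 or control 3, and 3 without knockdown 3. ITGA5 and ANKRD1 kept their calls in every alternative fitted.

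Of 39 genes of TGF-beta ligands, receptors, SMADs and targets, 37 were tested, with 2 higher, 4 lower and a median log2 fold change of 0.01. This is 16.2% called, beside 8.08% of all tested genes. TGFB1 was at 102 ± 5.71 CPM in knockdown and 103 ± 7.06 CPM in control (edgeR adjusted p = 0.910). TGFB2 was at 519 ± 9.13 CPM in knockdown and 454 ± 27.2 CPM in control, with groups that did not overlap and an edgeR adjusted p of 0.152. SKIL, a repressor of SMAD complexes, had 118, 133 and 121 CPM in knockdown libraries, against 98.4, 98.4 and 87.7 CPM in control libraries, and rose by 0.39 (SE 0.08, edgeR adjusted p = 0.00247). CDKN2B, the cell cycle inhibitor p15, was at 40.7 ± 4.09 CPM in knockdown and 30.5 ± 2.62 CPM in control and rose by 0.42 (edgeR adjusted p = 0.0109, but 0.0819 without knockdown 2 and 0.0605 without knockdown 3). LOX, the collagen cross-linking enzyme, was at 183 ± 16.7 CPM in knockdown and 236 ± 34.5 CPM in control and fell by 0.36 (edgeR adjusted p = 0.0187, but 0.0869 without knockdown 1 and 0.102 without control 2). BHLHE40, a transcriptional repressor, was at 68.9 ± 5.68 CPM in knockdown and 91.5 ± 16.8 CPM in control and fell by 0.41 (edgeR adjusted p = 0.0199, but 0.0925, 0.0836 and 0.106 without knockdown 1, knockdown 3 or control 2). The remaining lower genes were TGFBI and BAMBI. None of the 4 lower genes was called without knockdown 1 or without control 2, 1 was without knockdown 3, and 2 were without knockdown 2 or control 3. Of the 2 higher genes, 1 was called without knockdown 2 or knockdown 3.

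**Figure D4:**
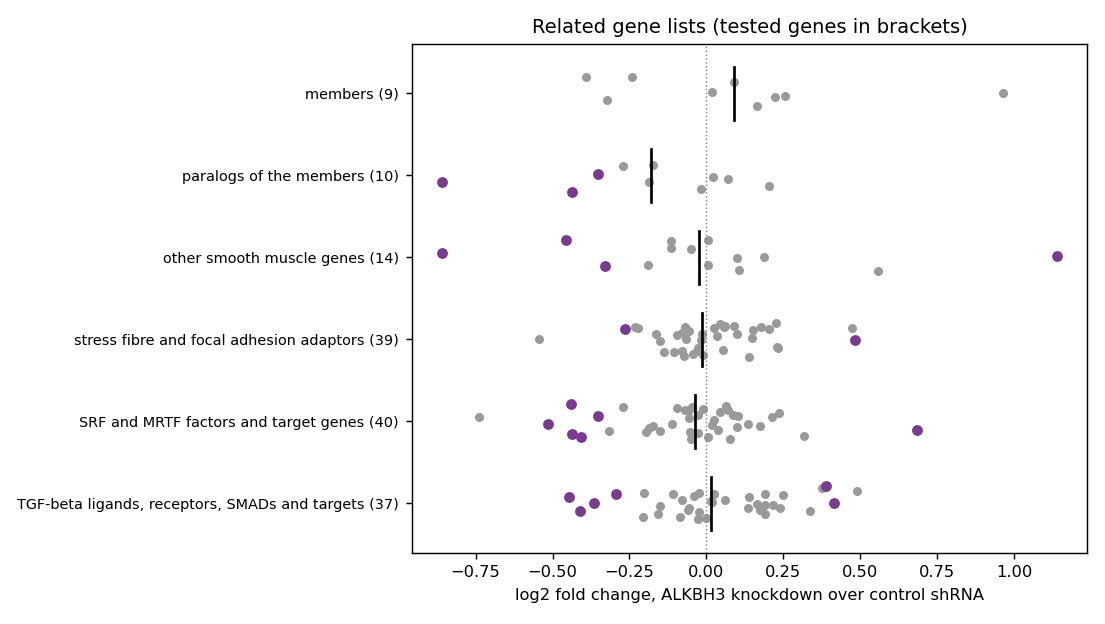
Log2 fold change, ALKBH3 knockdown over control shRNA, of each tested gene in the members and in 5 related lists, 1 point per gene and a black bar at the median. Purple points passed the test at an adjusted p under 0.05, and the members are drawn in grey because they carry no test. The medians lie between -0.18 and 0.09.

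The paralogs of the members numbered 16, of which 10 were tested, with 0 higher, 3 lower (CNN3, ACTG1 and ACTG2) and a median log2 fold change of -0.18. That is 30.0% called, beside 8.08% of all tested genes. Of the 10 tested paralogs, 3 had a positive and 7 a negative log2 fold change. MYL12B, which was higher, had an unadjusted p under 0.05 in edgeR, as 2730 of all 12305 tested genes did. ACTB, TPM4 and TPM3 were lower without passing the test (edgeR adjusted p = 0.0855, 0.183 and 0.221). No paralog was higher by adjusted p in DESeq2. DESeq2 called 5 paralogs lower, where it called 465 higher and 542 lower among all genes. The other smooth muscle genes numbered 26, of which 14 were tested, with 1 higher, 3 lower (28.6% called) and a median of -0.02. CSRP2, a LIM protein of smooth muscle, was at 55.6 ± 4.64 CPM in knockdown and 76.2 ± 7.93 CPM in control and fell by 0.46 (SE 0.09, edgeR adjusted p = 0.00199). SMTN, the stress fibre protein smoothelin, was at 72.3 ± 6.97 CPM in knockdown and 91.1 ± 3.37 CPM in control and fell by 0.33 (edgeR adjusted p = 0.0139, but 0.0836 without knockdown 2 and 0.108 without knockdown 3). The third lower gene was ACTG2. HSPB6, a small heat shock protein of muscle, had 40, 34 and 30 reads in knockdown libraries, against 12, 14 and 15 in control libraries, and rose by 1.14 (SE 0.32, edgeR adjusted p = 0.0282). Its call was lost without any 1 of the 6 libraries, at adjusted p from 0.0606 to 0.106.

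Stress fibre and focal adhesion adaptors numbered 42, of which 39 were tested, with 1 higher, 1 lower (5.13% called, beside 8.08% of all tested genes) and a median of -0.01. TNS1, tensin 1, was at 11.3 ± 0.90 CPM in knockdown and 8.12 ± 0.70 CPM in control and rose by 0.48 (edgeR adjusted p = 0.0366). That call held without control 3, but not without knockdown 1 (0.126), knockdown 2 (0.124), knockdown 3 (0.0508), control 1 (0.123) or control 2 (0.0648). ACTN1, the actin cross-linker alpha-actinin 1, was at 652 ± 45.0 CPM in knockdown and 783 ± 20.9 CPM in control and fell by 0.27 (edgeR adjusted p = 0.0475). It held without knockdown 1, but not with scaling by library totals (0.0724) or without knockdown 2 (0.193), knockdown 3 (0.241), control 1 (0.101), control 2 (0.0551) or control 3 (0.0801). Filamin A (FLNA) was at 2570 ± 291 CPM in knockdown and 2490 ± 94.6 CPM in control (edgeR adjusted p = 0.834).

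**Figure D5:**
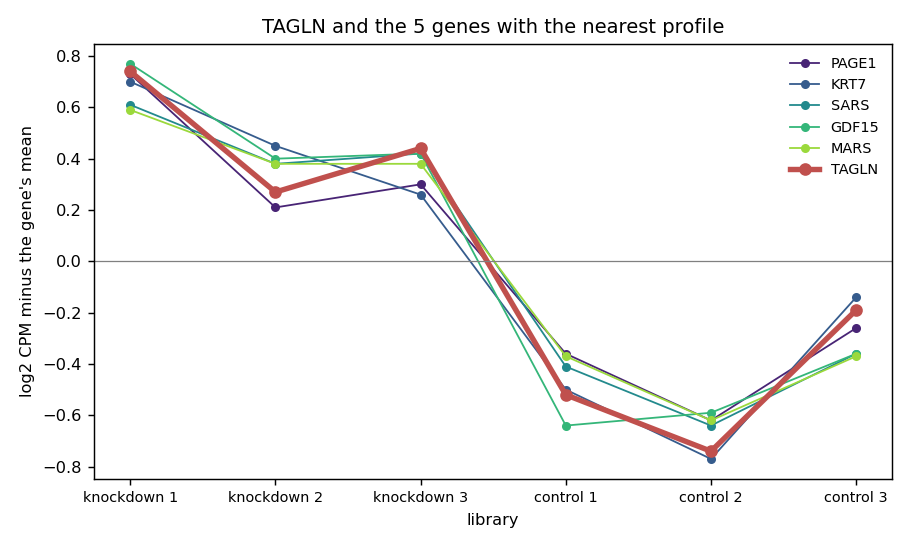
Centred log2 CPM (each gene's value minus its mean over the 6 libraries) of TAGLN and the 5 genes with the nearest profile, by library, ALKBH3 knockdown left of control shRNA. Lines only join points of 1 gene. TAGLN is highest in knockdown 1 (0.74) and lowest in control 2 (-0.74).

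The profile of TAGLN over the 6 libraries was compared with that of 10428 other genes of at least 5 CPM on average, by the root mean square difference of centred log2 CPM, where 0 is an identical profile. The nearest was PAGE1, a cancer-testis antigen, at 0.107, followed by KRT7, a simple epithelial keratin, at 0.109. SARS, the cytosolic seryl-tRNA synthetase, was at 0.117, GDF15, a secreted stress factor, at 0.119, and MARS, the methionyl-tRNA synthetase, at 0.135. GDF15 had 23.9, 18.4 and 18.6 CPM in knockdown libraries, against 8.87, 9.22 and 10.8 CPM in control libraries. KRT7 had 15.4, 13.0 and 11.4 CPM in knockdown libraries, against 6.62, 5.49 and 8.53 CPM in control libraries. Both followed TAGLN in standing highest in knockdown 1.

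ACTA2, CNN1 and MYL9 were under 5 CPM and not compared, and the other 6 members were not among the 5 nearest. Among 10434 genes with the members included, TPM1 ranked 826th at 0.417, CALD1 1656th at 0.456 and TPM2 1878th at 0.463. MYLK ranked 4208th, TAGLN2 9182nd and CNN2 9691st. The likeness includes the difference between groups that chose TAGLN, and it is over 6 libraries only, so it is given as a description.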

How the data were processed

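Per the file headers, the deposited table holds unnormalized read counts of each gene in each library. The submitters' processing notes name fastp 0.20.0, STAR 2.7.9a, featureCounts 2.0, DESeq2 and hg19. Their settings, the annotation release and the strand used in counting were not given in the sources used here. In the table, 2 rows held no values.

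Genes were filtered with filterByExpr (genes removed held 0.0556% of counts), scaled by TMM and compared with edgeR 4.0.16 (glmQLFit, robust, group alone) in R 4.3.3, with Benjamini-Hochberg adjustment over 12305 genes. CPM use TMM-scaled totals. DESeq2 1.42.0 and limma 3.58.1 (voom) were alternatives. The fit was tested on simulated data. Lengths for RPKM were GENCODE v29 exon lengths (GRCh38), since the table gives genomic spans only. Centred log2 CPM used a prior count of 2.

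The members and lists were chosen with earlier results of these data known. Genes named were the members, ALKBH3, fixed factors and paralogs, up to 4 called genes per list with the smallest adjusted p, and the 5 nearest TAGLN. FLNA, MYL12A, MYL12B, SPHK1, CORO1A, TGFBI, BAMBI, the marker genes and the genes overlapping members were named after their values were seen. One list of related genes is not reported here.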

Additional observations from a re-analysis of the deposited data

How the results depend on the processing

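Over 13 alternatives the log2 fold change of TAGLN ran from 0.82 to 1.13. All reuse the libraries in which TAGLN was chosen, so they carry no test of it. Over these alternatives 6 of the 9 tested members kept their sign. ACTA2 and TPM2 each changed sign in 1 and MYLK in 2, all of them genes whose groups overlapped. Of 28 other named genes tested, 20 were called, of which 0 changed sign and 8 lost the call under at least 1 alternative, while 3 that were not called (SRF, MKL2 and TGFB1) changed sign. Among all genes, leaving out 1 library gave 312 to 433 higher and 285 to 423 lower, and DESeq2 gave 465 higher and 542 lower. The members gave 2 higher with library totals, DESeq2 and the replicate block, and 2 lower with DESeq2 and the replicate block, while 0 to 1 were lower with 1 library left out. DESeq2 gave 5 paralogs lower, 0 other smooth muscle genes higher, and 2 higher and 2 lower adaptors of stress fibres. Library totals gave 3 such adaptors higher and 0 lower, and 4 TGF-beta genes higher, and the replicate block gave 2 adaptors higher. With 1 library left out, the lists gave 0 other smooth muscle genes higher, 0 to 1 adaptors higher and 0 to 2 lower, 2 to 5 SRF targets lower, and 1 to 3 TGF-beta genes higher and 0 to 4 lower. The causes were not tested.

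Deviations of same-numbered libraries had correlations of 0.058, 0.107 and -0.056, which are too few to settle whether the numbers pair libraries. The replicate block gave 587 genes higher and 647 lower. The length of the longest protein-coding transcript, chosen after seeing the data, gave mean levels of 570 RPKM for TPM1, 510 for TPM2, 439 for TAGLN2, 111 for CNN2, 98.9 for CALD1, 24.8 for TAGLN, 19.8 for MYLK, 1.72 for ACTA2 and 0.681 for CNN1, which turns round the order of the first 3. A RefSeq length was not run, since the tables give none. Depth limits ACTA2, CNN1 and MYL9, with at most 56 reads in a library.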

Other observations

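A few low marker genes, picked after their values were seen, differed between libraries in ways worth a second look. SYNPO2, a smooth muscle partner of actin, had 9, 12 and 3 reads in knockdown libraries, against 2, 0 and 1 in control libraries. DCN, the fibroblast proteoglycan decorin, had 0 reads in all knockdown libraries, against 4, 5 and 2 in control libraries. PTPRC, which encodes the leukocyte antigen CD45, had 32, 65 and 0 reads in knockdown libraries, against 16, 18 and 2 in control libraries, so that it was nearly absent from the third library of each group. None of these was followed further.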
